A study of Mus musculus with 6 samples.

Results

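Transcripts of 33 genes were followed in mouse naive CD4+ T cells that were activated for 6 h with or without the chemokine CCL19. The genes were taken by symbol from lists of interferon-inducible GTPases, of antigen presentation and of the kinase JAK2 and the inhibitor SOCS1. The rule used symbols only, but the members were chosen with earlier results of these data known. Counts of members set against all tested genes are therefore descriptions. All 33 were in the deposited table of 24470 genes, and all 33 were among the 11666 genes with enough counts to test. They are 10 guanylate-binding proteins (GBPs), 7 immunity-related GTPases (IRGs), Jak2 and Socs1, and 14 genes of antigen presentation, namely 3 immunoproteasome subunits, 3 genes of peptide transport and loading, 3 MHC class I genes, 3 MHC class II genes and the transactivators Ciita and Nlrc5.

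Male C57BL/6J mice gave the cells, which were purified by magnetic sorting from spleen and from lymph nodes that drain the skin. Both groups received the same stimulus, immobilised antibodies to CD3 and CD28 (coating at 1 µg/mL), which replace antigen and costimulation. In the CCL19 group (3 libraries) recombinant mouse CCL19, a ligand of the receptor CCR7 on naive T cells, was in the medium, and in the no-CCL19 group (3 libraries) it was not. The dose of CCL19 and the age of the mice are not given in the labels. The labels do not tie replicates to different mice or wells. The p-values reflect how much these 6 samples vary, and that variation may be technical.

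Interferon-gamma binds a receptor of the chains IFNGR1 and IFNGR2, and the attached kinases JAK1 and JAK2 start the signal. It reaches gamma-activated sites (GAS) in promoters, and IRF1 and related factors bind interferon-stimulated response elements (ISRE). Among the best known targets are the GBPs and IRGs, large GTPases that assemble on the vacuoles of intracellular pathogens and are best studied in macrophages and fibroblasts. Other targets are the immunoproteasome subunits, the TAP peptide transporter and MHC class I molecules, which together display peptides of cytosolic proteins to CD8 T cells. MHC class II genes need the transactivator CIITA and are chiefly expressed in B cells, dendritic cells and macrophages. Of all these, GBP and IRG transcripts are also used in T cells as a readout of interferon exposure, which was not tested here.

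The total counts lay between 16978736 and 26980697 in CCL19 libraries and between 18203667 and 27429898 in no-CCL19 libraries. T cell markers summed to between 4121 and 4221 CPM (read counts scaled to a common library size) in CCL19 libraries, against 4019 to 4275 CPM in no-CCL19 libraries. B cell markers summed to between 24.4 and 32.3 CPM in CCL19 libraries and between 31.2 and 34.9 CPM in no-CCL19 libraries. Dendritic cell and macrophage markers summed to between 48.5 and 51.6 CPM in CCL19 libraries and between 52.2 and 63.6 CPM in no-CCL19 libraries, and Clec4a4 had no count. In these markers, fewer cells of a type and less RNA per cell cannot be told apart. No-CCL19 replicate 1 was the lowest of the 6 libraries for 27.1% of all tested genes, and results are given with and without it below. Its depth, 23816093 counts, was within the range of the others. Of 5 regulatory T cell markers, 2 had a log2 fold change (CCL19 over no CCL19) above 0, and the median was -0.02. DESeq2 called 1 of the 5 higher, against 6.55% of all genes called higher. That marker, Il2ra, is also induced by activation and was at 0.55 ± 0.12 on the log2 scale (DESeq2 adjusted p 0.00183). Without no-CCL19 replicate 1, DESeq2 put Il2ra at 0.42 (adjusted p 0.0249). Foxp3, the defining factor of regulatory T cells, averaged 10.5 CPM in CCL19 libraries and 10.4 CPM in no-CCL19 libraries.

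Promoter windows from RefSeq (GRCm38.p6, 250 bases before to 50 after a start site) were matched by gene ID for 21 of the 33 genes. The ISRE core was searched as GAAANNGAAA and the GAS as TTCNNNGAA, on both strands, with overlapping matches counted once per window. Of 10 GTPase genes with a window, 9 held an ISRE core, and 6 held a GAS. Iigp1 and the GBPs of chromosome 5, Gbp8 and Gbp10 among them, had no window and were not searched. Of 9 antigen presentation genes with a window, 1 held an ISRE core, which was B2m, and 1 held a GAS, which was Psmb8. The windows of Psmb9 and Tap1 cover nearly the same bases on opposite strands, so they are not separate cases. Over all 32851 windows in the table, 3.44% held the ISRE core and 8.3% the GAS. The capitals in each line mark the ISRE core and, where it lies in the stretch, the GAS. The lines are 5′ to 3′ on the strand of the gene, written up to 25 bases to each side and ending before the start site. The first set is from IRG genes of chromosome 11 and shows a GAS followed after 2 bases by an ISRE core in each line.
Tgtp1 (chr11:48992289-48992348, minus strand): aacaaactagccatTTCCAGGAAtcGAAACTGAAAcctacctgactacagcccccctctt
Tgtp2 (chr11:49064248-49064307, minus strand): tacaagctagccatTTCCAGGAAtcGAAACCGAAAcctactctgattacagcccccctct
Igtp (chr11:58199497-58199555, plus strand): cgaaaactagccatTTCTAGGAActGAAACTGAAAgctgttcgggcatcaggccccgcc
Irgm2 (chr11:58214888-58214947, plus strand): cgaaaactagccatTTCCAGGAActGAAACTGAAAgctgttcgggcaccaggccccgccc
The next set shows the GBP genes of chromosome 3, in which the ISRE core reads on the opposite strand, and Irgm1. In Gbp3 and Irgm1 a pair of cores overlap.
Gbp2 (chr3:142620579-142620638, plus strand): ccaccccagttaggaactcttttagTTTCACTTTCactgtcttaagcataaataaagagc
Gbp3 (chr3:142559974-142560039, plus strand): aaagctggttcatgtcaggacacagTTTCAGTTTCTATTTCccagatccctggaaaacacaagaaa
Gbp5 (chr3:142496744-142496803, plus strand): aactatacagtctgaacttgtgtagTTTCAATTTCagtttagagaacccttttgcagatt
Gbp7 (chr3:142530258-142530317, plus strand): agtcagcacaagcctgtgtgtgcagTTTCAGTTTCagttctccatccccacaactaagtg
Irgm1 (chr11:48871421-48871475, minus strand): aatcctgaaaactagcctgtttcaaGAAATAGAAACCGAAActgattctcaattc
The last set holds the genes outside the GTPases that had a core, the inhibitor Socs1 and the class I light chain B2m.
Socs1 (chr16:10785579-10785644, minus strand): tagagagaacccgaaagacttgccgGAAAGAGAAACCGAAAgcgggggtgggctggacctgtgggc
B2m (chr2:122147523-122147582, plus strand): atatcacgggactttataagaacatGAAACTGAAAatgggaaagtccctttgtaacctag

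In Gbp2 the core began 59 bases before the start site and in Igtp 34 bases before it. Gbp5 and Gbp7 each held 2 GAS matches, which in both genes lie outside the stretch shown. Gbp3 has a second start site in the table, whose window held neither motif. The window of Ifi47, an IRG GTPase, held neither motif, nor did that of Jak2. A match describes letters in a window and does not show that a factor binds there, and a window without a match leaves out other forms of these elements.

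With CCL19, all 17 GTPase genes had a log2 fold change (CCL19 over no CCL19) above 0, with a median of 0.35, while 49.8% of all tested genes did and the median of all tested genes was 0.0. The GBPs had a median of 0.43 (range 0.31 to 0.65) and the IRGs one of 0.24 (range 0.19 to 0.48). The 14 antigen presentation genes had a median of -0.07, and 3 of them lay above 0. edgeR's quasi-likelihood test called none of the 33 genes at an adjusted p under 0.05, nor any of the 11666 genes tested (0.0%). The smallest edgeR adjusted p of any tested gene was 0.0505, just above that threshold. At an unadjusted p under 0.05, 13 of the 33 genes were higher with CCL19, against 14.5% of all tested genes that were higher. None of the 33 was lower, and the share of all tested genes that were lower was not counted. The 13 were all GBPs except Gbp11, the IRGs Irgm1, Iigp1 and Tgtp1, and Jak2. DESeq2 called 2 of the 32 members it gave an adjusted p to, Gbp8 and Jak2, both higher with CCL19, against 6.55% of 9613 genes called higher and 5.6% called lower. The authors' deposited table of changed genes holds the same genes that DESeq2 called here, so it adds no separate evidence. It lists Gbp8 and Jak2 as higher with CCL19 and no other member.

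**Figure D1:**
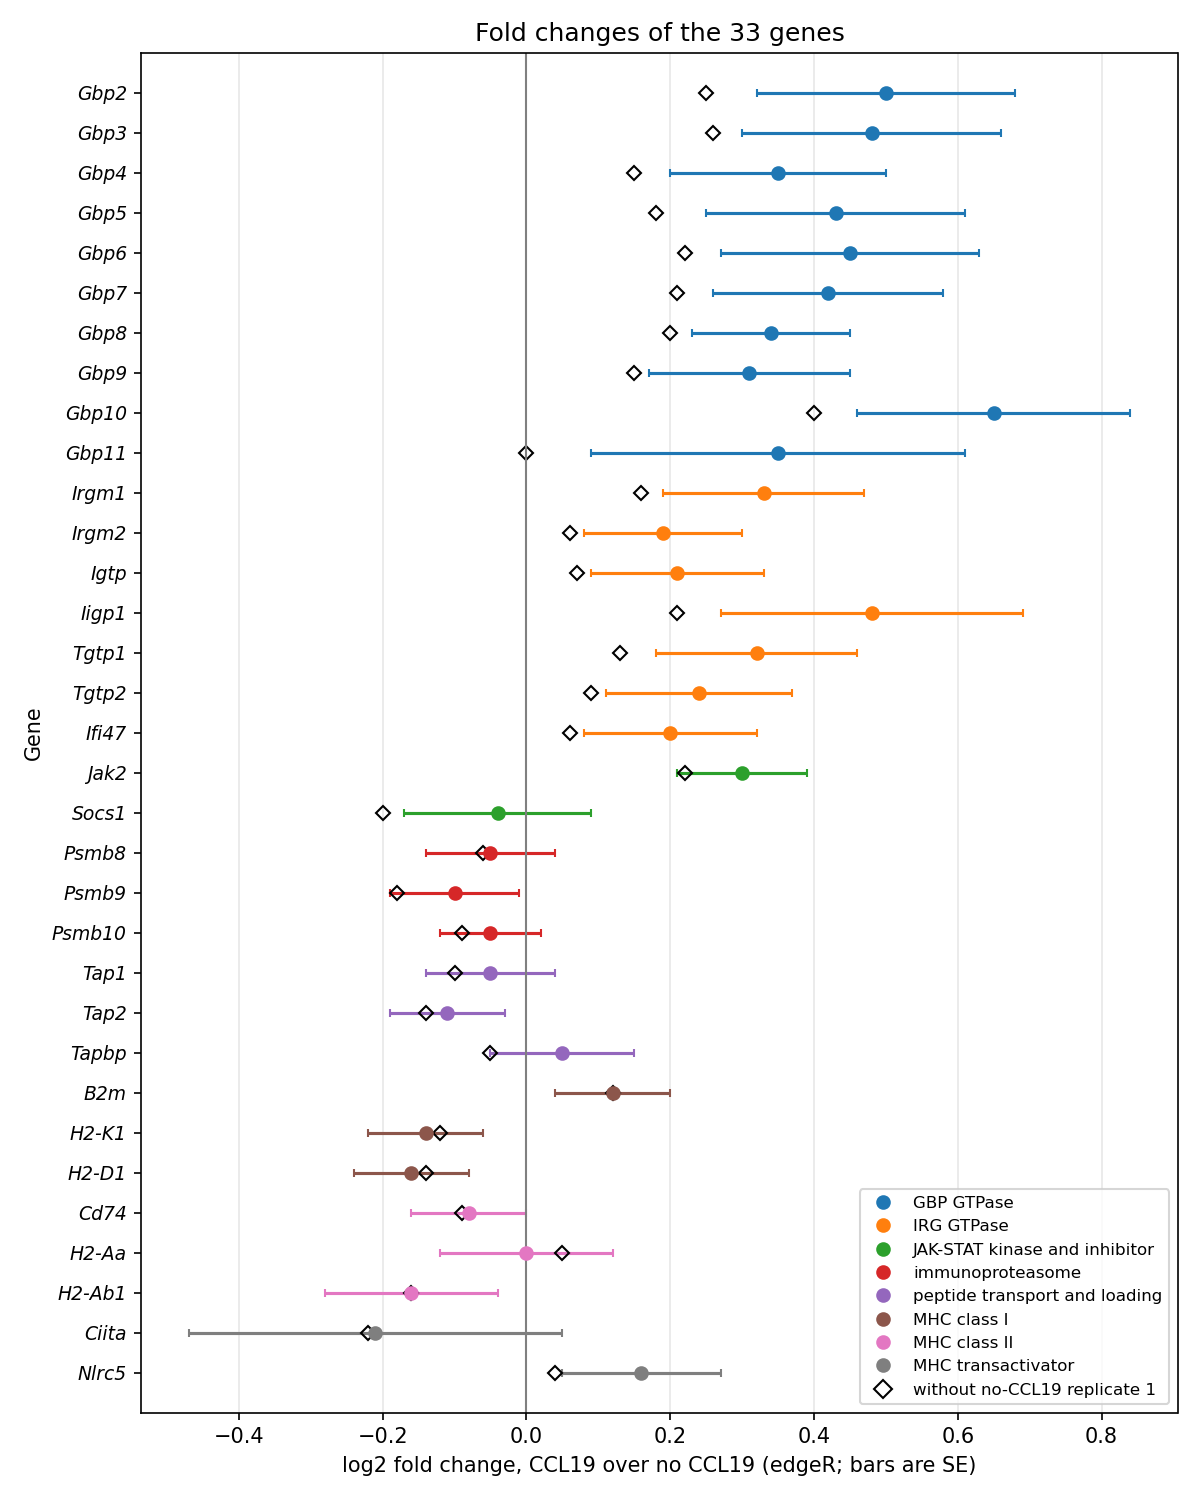
Log2 fold change (CCL19 over no CCL19, horizontal axis) of each of the 33 genes, with bars of 1 SE from edgeR and colours for gene classes; open diamonds are fits without no-CCL19 replicate 1. The filled points of all 17 GTPases lie above 0, at 0.19 to 0.65, and their diamonds lie closer to 0, with a median of 0.16.

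The GBPs are encoded in a cluster on chromosome 3 (Gbp5, Gbp7, Gbp3 and Gbp2, chr3:142496934-142638008) and one on chromosome 5 (Gbp8, Gbp9, Gbp4, Gbp10, Gbp6 and Gbp11, chr5:105014153-105346476), in mm10 coordinates of the deposited table. Gbp2, one of the most strongly interferon-inducible members, had 571, 644 and 579 CPM in CCL19 libraries, against 264, 450.0 and 553 CPM in no-CCL19 libraries. The groups did not overlap, and no-CCL19 replicate 3 was close to the lowest CCL19 library. The log2 fold change of Gbp2 was 0.50 ± 0.18 (SE), with an edgeR adjusted p of 0.104 and a DESeq2 adjusted p of 0.255.

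Gbp10 had the largest fold change of the 33 genes. Its CPM were 25.8, 33.1 and 27.2 in CCL19 libraries, against 11.6, 19.9 and 23.8 in no-CCL19 libraries, again without overlap. Its log2 fold change was 0.65 ± 0.19, and 96 of the 11666 tested genes had a larger one. The edgeR adjusted p of Gbp10 was 0.0619 and the DESeq2 adjusted p 0.163. Of the 50-base windows of its longest transcript, 82.5% also occur in another gene, chiefly Gm43302 (79.2%), so its reads and those of that gene cannot be fully told apart. For Gbp6 the share was 59.7%.

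Gbp8 had 137, 162 and 145 CPM in CCL19 libraries, against 94.0, 123 and 136 CPM in no-CCL19 libraries. On the log2 CPM scale its SD among no-CCL19 libraries, 0.275, was the smallest of the 10 GBPs, and its groups stood just apart. Its log2 fold change was 0.34 ± 0.11, with an edgeR adjusted p of 0.0838. Gbp8 was the 1 GTPase of 17 that DESeq2 called higher (adjusted p 0.0451), against 6.55% of all genes called higher. Its log2 fold change was 0.20 without no-CCL19 replicate 1, and the DESeq2 adjusted p was then 0.222. The shared-window share of Gbp8 was 18.2%.

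The other GBPs overlapped between the groups. Gbp4, the GBP with the most counts, had 787, 955 and 887 CPM in CCL19 libraries, against 492, 727 and 851 CPM in no-CCL19 libraries. Its log2 fold change was 0.35 ± 0.15 (edgeR adjusted p 0.156). Here no-CCL19 replicate 3 lay inside the range of the CCL19 libraries and no-CCL19 replicate 1 far below it. Gbp11 had 23.3, 28.3 and 27.2 CPM in CCL19 libraries, against 9.38, 25.2 and 27.8 CPM in no-CCL19 libraries. In Gbp11 the difference came from 1 library, and its log2 fold change of 0.35 ± 0.26 became 0.00 without no-CCL19 replicate 1. Gbp3, Gbp5, Gbp6, Gbp7 and Gbp9 had log2 fold changes of 0.31 to 0.48, with edgeR adjusted p between 0.105 and 0.164.

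**Figure D2:**
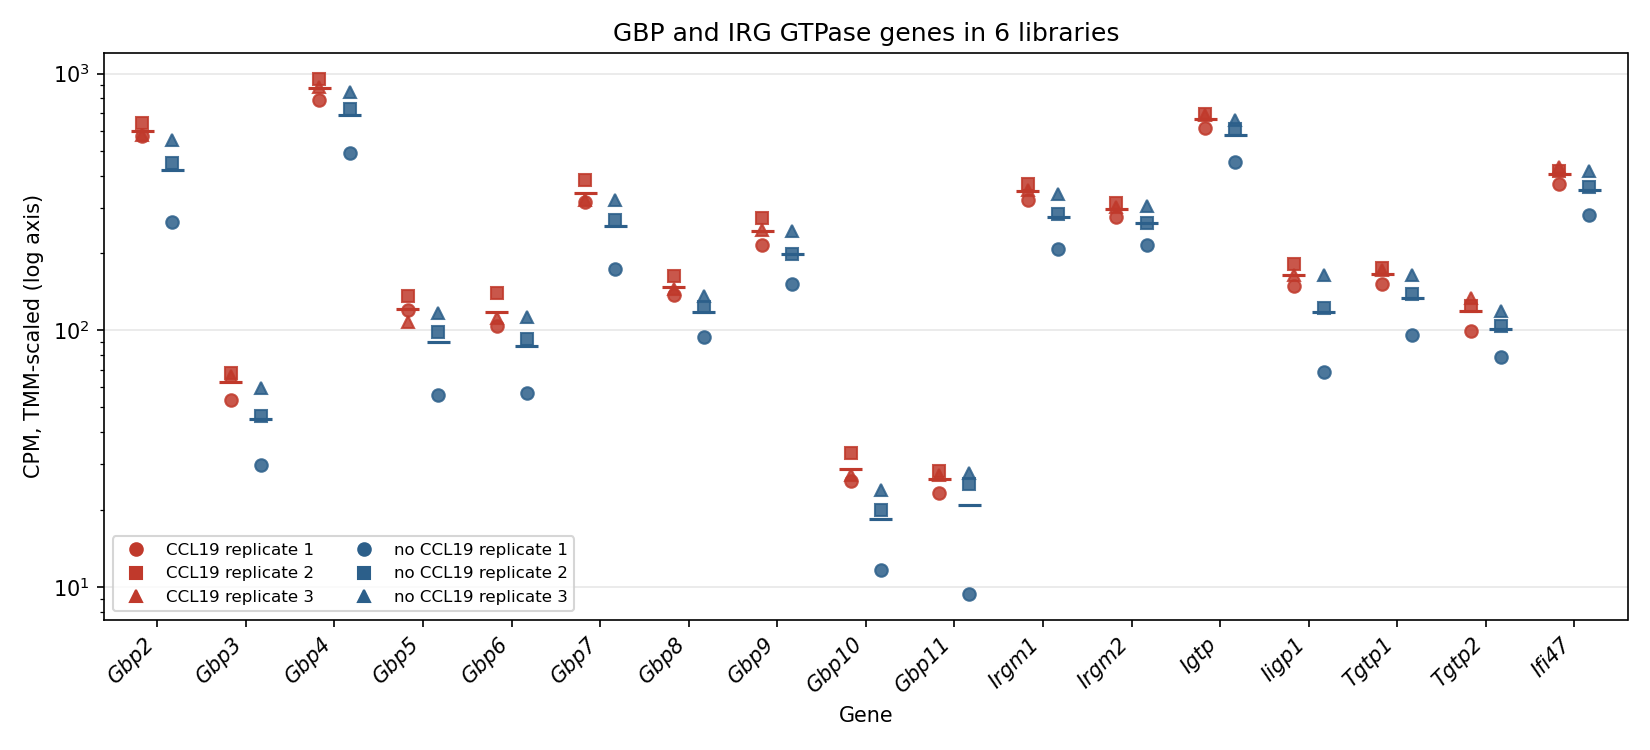
CPM scaled by TMM (log axis) of the 17 GTPase genes in each of the 6 libraries, with CCL19 left and no CCL19 right for each gene; symbols give the replicate and short lines the group mean. No-CCL19 replicate 1 is the lowest point for all 17 genes, and no-CCL19 replicate 3 lies within the CCL19 range for 14 of them.

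The IRGs include effector GTPases, which are loaded onto vacuoles and damage them, and regulatory ones of the IRGM group, which keep the effectors off the cell's own membranes. All but Iigp1 lie on chromosome 11 (chr11:48865249-58222783). Of the regulators, Irgm1 had 321, 372 and 351 CPM in CCL19 libraries, against 207, 283 and 341 CPM in no-CCL19 libraries. Its log2 fold change was 0.33 ± 0.14, with adjusted p of 0.138 by edgeR and 0.0765 by DESeq2. Irgm2 and Igtp (also called Irgm3) had smaller log2 fold changes, 0.19 ± 0.11 and 0.21 ± 0.12. Igtp had 615, 695 and 687 CPM in CCL19 libraries, against 454, 611 and 659 CPM in no-CCL19 libraries. The groups of all 3 regulators overlapped through no-CCL19 replicate 3.

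Among the effectors, Iigp1 (Irga6) had 149, 181 and 164 CPM in CCL19 libraries, against 68.6, 122 and 164 CPM in no-CCL19 libraries. Its no-CCL19 libraries covered most of the range seen among all 6, and the log2 fold change was 0.48 ± 0.21 (edgeR adjusted p 0.151). Tgtp1 and Tgtp2 (Irgb6) had log2 fold changes of 0.32 ± 0.14 and 0.24 ± 0.13. These are near-identical neighbours, and 91.4% and 90.6% of their 50-base windows occur in another gene, chiefly each other, so their separate values are uncertain. Ifi47 (Irgd) had a log2 fold change of 0.20 ± 0.12. Tgtp2 and Ifi47 both overlap Olfr56, which averaged 3.69 CPM. At an unadjusted edgeR p under 0.05, 3 of 7 IRGs and 9 of 10 GBPs were higher with CCL19, against 14.5% of all tested genes. None of them passed edgeR's adjusted threshold, and all were lowest in no-CCL19 replicate 1.

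Read per kilobase of exon, Igtp had the highest level of the 17 GTPases, with a mean of 329 CPM per kb in CCL19 libraries and 284 CPM per kb in no-CCL19 libraries. Gbp2 followed with 238 CPM per kb in CCL19 libraries and 168 CPM per kb in no-CCL19 libraries. Gbp10 and Gbp11 were the lowest, Gbp10 at 7.41 CPM per kb in CCL19 libraries and 4.76 CPM per kb in no-CCL19 libraries. Exon length was not corrected for sequence shared with other genes, so the levels of Gbp10, Gbp6, Tgtp1 and Tgtp2 are uncertain. The GTPase transcripts were present in both groups, over a wide range of levels.

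The GTPases resembled each other in how they varied among the libraries. No-CCL19 replicate 1 was the lowest of the 6 libraries for all 17, against 27.1% of all tested genes. The SD of log2 CPM was larger among no-CCL19 libraries than among CCL19 libraries for all 17, against 51.3% of all tested genes. The GTPase score, the mean deviation in log2 CPM from each gene's mean, was 0.07, 0.33 and 0.21 in CCL19 libraries, against -0.69, -0.08 and 0.17 in no-CCL19 libraries. In this score no-CCL19 replicate 3 lay above CCL19 replicate 1. No-CCL19 replicate 3 lay within the CCL19 range for 14 of 17 genes.

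Without no-CCL19 replicate 1, the median log2 fold change of the GTPases was 0.16 and 16 of 17 stayed above 0, against 51.4% of all genes tested in that fit. The median was then 0.20 for GBPs and 0.09 for IRGs. Without no-CCL19 replicate 3, the median of the 17 was 0.52, and edgeR called Gbp2, Gbp3, Gbp10 and Iigp1 higher at adjusted p between 0.0454 and 0.0480, against 1.98% of 11872 genes called higher. Without CCL19 replicate 3, edgeR called Gbp10 (adjusted p 0.0342) and Jak2 (0.0387), both higher, against 6.5% of 11871 genes called higher. Without a filter on low counts, edgeR called 13 of the 33 genes, all higher (the GBPs except Gbp11, Irgm1, Iigp1, Tgtp1 and Jak2), against 5.05% of 15905 genes called higher. DESeq2 called 0 members without CCL19 replicate 1 (28 with an adjusted p), against 0.335% of all genes called higher, and 0 without CCL19 replicate 2 (32 with one), against 0.699%. Without no-CCL19 replicate 1 it gave an adjusted p to 26 members and called 0, against 1.83% of 3287 genes called higher. In the next 3 fits 32 members had an adjusted p. DESeq2 called Jak2 without CCL19 replicate 3 (9.2% of all genes called higher) and without no-CCL19 replicate 2 (7.02%). Without no-CCL19 replicate 3 it called 13 members higher, all of them GTPases except Jak2, against 7.45% of all genes.

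**Figure D3:**
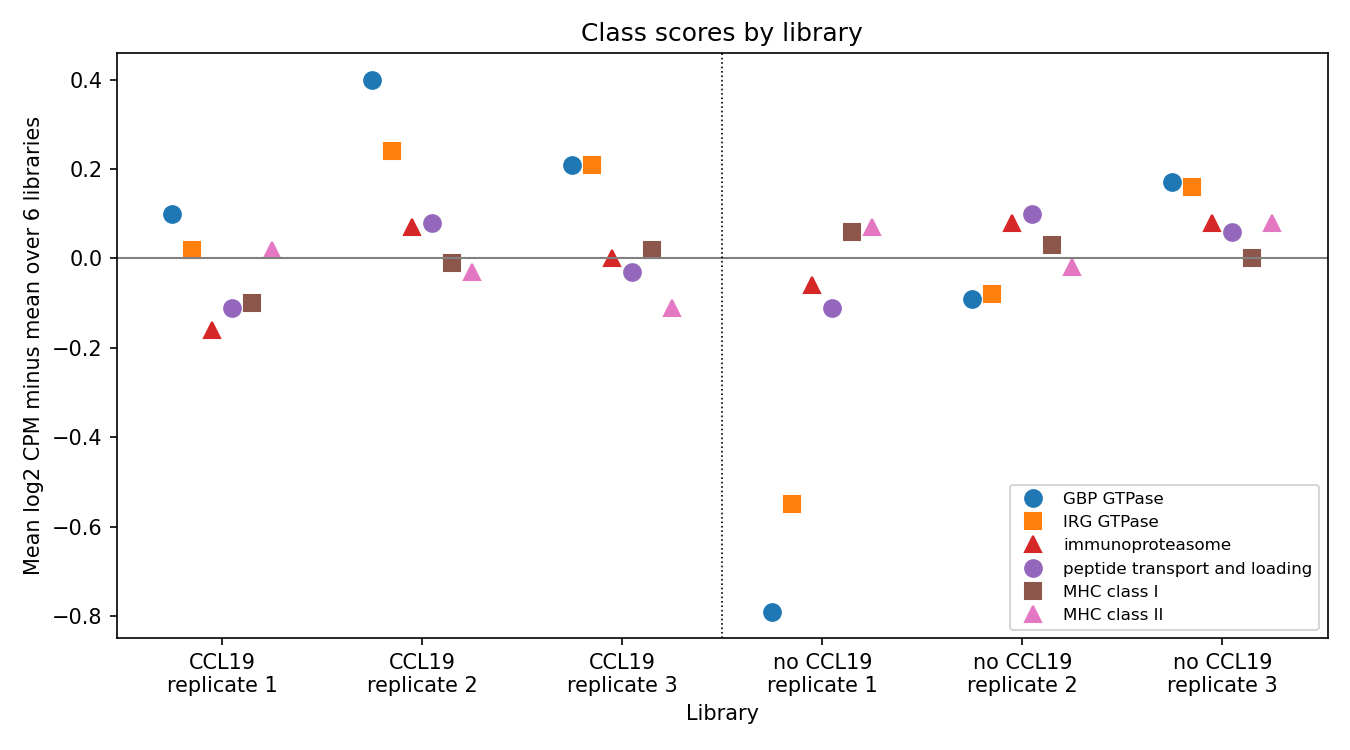
Score of each gene class (mean log2 CPM minus the gene's mean over 6 libraries, vertical axis) in the 3 CCL19 libraries on the left and the 3 no-CCL19 libraries on the right. The GBP and IRG scores of no-CCL19 replicate 1, at -0.79 and -0.55, lie below all others, while the MHC class I score of that library is 0.06.

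Jak2, the kinase that pairs with JAK1 on the interferon-gamma receptor, had 434, 391 and 376 CPM in CCL19 libraries, against 285, 334 and 354 CPM in no-CCL19 libraries. The groups did not overlap. Jak2 rose by DESeq2 (adjusted p 0.0216), with a log2 fold change of 0.30 ± 0.09 and an edgeR adjusted p of 0.0722. The DESeq2 adjusted p of Jak2 was 0.125 without no-CCL19 replicate 1. The kinase also serves receptors for other cytokines. Socs1, the feedback inhibitor of JAK kinases, had 91.3, 92.5 and 80.4 CPM in CCL19 libraries, against 69.2, 110.2 and 91.3 CPM in no-CCL19 libraries. The CCL19 libraries of Socs1 lay inside the no-CCL19 range, and the log2 fold change was -0.04 ± 0.13 (edgeR adjusted p 0.885). Both genes were lowest in no-CCL19 replicate 1, as the GTPases were.

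Genes that carry the interferon-gamma signal were also examined. Of 25 tested genes of the interferon-gamma signalling list, which were not members, edgeR called 0, and the median log2 fold change was 0.00. DESeq2 called 2 of the 24 with an adjusted p, both higher, a share near the 6.55% of all genes called higher. The 2 were Irf8, a transcription factor of the interferon regulatory family, at 0.46 ± 0.13 (DESeq2 adjusted p 0.0140), and Cish, an inhibitor of cytokine signalling, at 0.39 ± 0.13 (adjusted p 0.0432). The groups overlapped for both. Without no-CCL19 replicate 1, Irf8 was at 0.32 (DESeq2 adjusted p 0.108) and Cish at 0.22 (adjusted p 0.230). Ifng itself was low, with 1.81, 2.63 and 1.39 CPM in CCL19 libraries, against 0.744, 1.71 and 1.41 CPM in no-CCL19 libraries. DESeq2 gave it no adjusted p. By edgeR the log2 fold change of Ifng was 0.60 ± 0.34 (adjusted p 0.266), and 0.32 without no-CCL19 replicate 1. Ifngr2 had 47.1, 57.4 and 70.7 CPM in CCL19 libraries, against 76.1, 72.7 and 72.1 CPM in no-CCL19 libraries, a log2 fold change of -0.33 ± 0.11 that missed the threshold in both tests (adjusted p 0.0881 by edgeR, 0.0511 by DESeq2). The log2 fold changes of Ifngr1 (-0.23), Jak1 (-0.18) and Irf1 (0.14) did not pass either.

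Of 21 tested genes on a list of other interferon-gamma-inducible GTPases and effectors, 20 had a log2 fold change above 0, with a median of 0.37, and no-CCL19 replicate 1 was the lowest library for 16. DESeq2 called 2 of the 16 with an adjusted p, both higher, against 6.55% of all genes. Cd274, which encodes the inhibitory ligand PD-L1, had 669.9, 650.1 and 543 CPM in CCL19 libraries, against 367, 498 and 509.5 CPM in no-CCL19 libraries (DESeq2 adjusted p 0.00800, edgeR adjusted p 0.0568). For Wars, a tryptophanyl-tRNA synthetase, the difference was 0.29 ± 0.09 on the log2 scale (adjusted p 0.0393 by DESeq2). Without no-CCL19 replicate 1 the median of this list was 0.16, and the DESeq2 adjusted p was 0.0564 for Cd274 and 0.195 for Wars.

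The 14 antigen presentation genes had log2 fold changes between -0.21 and 0.16. The immunoproteasome subunits Psmb8, Psmb9 and Psmb10, which replace the constitutive catalytic subunits and alter the peptides cut, had log2 fold changes of -0.05 ± 0.09, -0.10 ± 0.09 and -0.05 ± 0.07. Psmb8 had 199.6, 249 and 231 CPM in CCL19 libraries, against 229, 235 and 239.5 CPM in no-CCL19 libraries, so its no-CCL19 values lay close together inside the CCL19 range. Their edgeR adjusted p lay between 0.510 and 0.758. Of the constitutive counterparts, Psmb5 had a log2 fold change of -0.10 ± 0.10, Psmb6 one of 0.06 ± 0.07 and Psmb7 one of 0.23 ± 0.07. The groups of Psmb7 did not overlap, and its DESeq2 adjusted p was 0.0519. The subunits of the proteasome activator, Psme1 and Psme2, had log2 fold changes of 0.19 ± 0.09 and 0.24 ± 0.10, without overlap between groups and past neither test.

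Peptides from the proteasome are pumped into the endoplasmic reticulum by TAP1 and TAP2 and are loaded with help of tapasin, the product of Tapbp. Tap1 had 475, 548 and 538 CPM in CCL19 libraries, against 505, 580.0 and 534 CPM in no-CCL19 libraries. Tap2 had a log2 fold change of -0.11 ± 0.08 and Tapbp one of 0.05 ± 0.10, with edgeR adjusted p of 0.400 and 0.783. These 3 genes overlapped between the groups. Tap1 and Psmb9 are neighbours on chromosome 17, transcribed in opposite directions from start sites 226 bases apart.

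MHC class I molecules are made of a heavy chain, here H2-K1 or H2-D1, and the light chain beta-2 microglobulin, B2m. H2-K1 had 3352, 3563 and 3677 CPM in CCL19 libraries, against 4012, 3946 and 3711 CPM in no-CCL19 libraries. H2-D1 had 2032, 2266 and 2267 CPM in CCL19 libraries, against 2525, 2509 and 2312 CPM in no-CCL19 libraries. Every CCL19 library lay below every no-CCL19 library for both heavy chains, which 14.5% of all tested genes did too. B2m had 2134, 2164 and 2207 CPM in CCL19 libraries, against 1991, 1892 and 2085 CPM in no-CCL19 libraries, and so lay apart in the other direction. The log2 fold changes were small, -0.14 ± 0.08 for H2-K1, -0.16 ± 0.08 for H2-D1 and 0.12 ± 0.08 for B2m, and passed no test (edgeR adjusted p 0.283, 0.228 and 0.329). In all, 5 members lay apart with CCL19 higher (Gbp2, Gbp8, Gbp10, Jak2 and B2m), against 15.3% of all tested genes, and 2 with CCL19 lower.

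The promoters of both heavy chains held no ISRE core of the searched form and share a stretch with a kappa B motif, searched as GGGNNTTCC, which is in 5.82% of all windows. They are shown for comparison with the GTPases, with only the kappa B motif in capitals. ISRE forms other than the searched letters were not looked for, so an ISRE may lie unmarked in these stretches.
H2-K1 (chr17:34000425-34000483, minus strand): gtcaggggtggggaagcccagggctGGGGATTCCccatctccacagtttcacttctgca
H2-D1 (chr17:35262898-35262956, plus strand): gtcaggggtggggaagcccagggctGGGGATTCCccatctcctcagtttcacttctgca
Of the 50-base windows of the longest transcript, 14.3% for H2-D1 and 8.11% for H2-K1 occur in other genes, so reads of class I genes may be split among them.

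Other class I and peptide loading genes gave calls in both directions. Of 31 tested genes of this list, edgeR called 0, and the median log2 fold change was 0.08. DESeq2 called 5 higher and 3 lower of the 30 with an adjusted p, against 6.55% of all genes called higher and 5.6% called lower. The 5 were Calr (0.30 ± 0.09) and Canx (0.33 ± 0.10), the lectin chaperones that fold class I heavy chains and many other glycoproteins, Erap1 (0.36 ± 0.10), which trims peptides in the endoplasmic reticulum, and Psme3 (0.31 ± 0.10) and Pomp (0.29 ± 0.08), an activator and an assembly factor of the proteasome. The 3 were the non-classical class I genes H2-Q6 (-0.32 ± 0.08) and H2-Q7 (-0.30 ± 0.09), and Rfxank (-0.28 ± 0.08), a subunit of the factor RFX at MHC promoters. H2-Q6 and H2-Q7 are close relatives, so their reads may be split between them. H2-Q7 had 515, 602 and 563 CPM in CCL19 libraries, against 735, 688 and 639.9 CPM in no-CCL19 libraries. Calr had 806, 781 and 683 CPM in CCL19 libraries, against 581, 628 and 634 CPM in no-CCL19 libraries. The DESeq2 adjusted p of these 8 genes lay between 0.0101 and 0.0486. Without no-CCL19 replicate 1, that of 7 of them lay between 0.0699 and 0.137, and Rfxank had none. Pdia3 (0.19 ± 0.08) and Rfx5 (0.24 ± 0.09) lay apart with CCL19 higher and passed neither test.

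**Figure D4:**
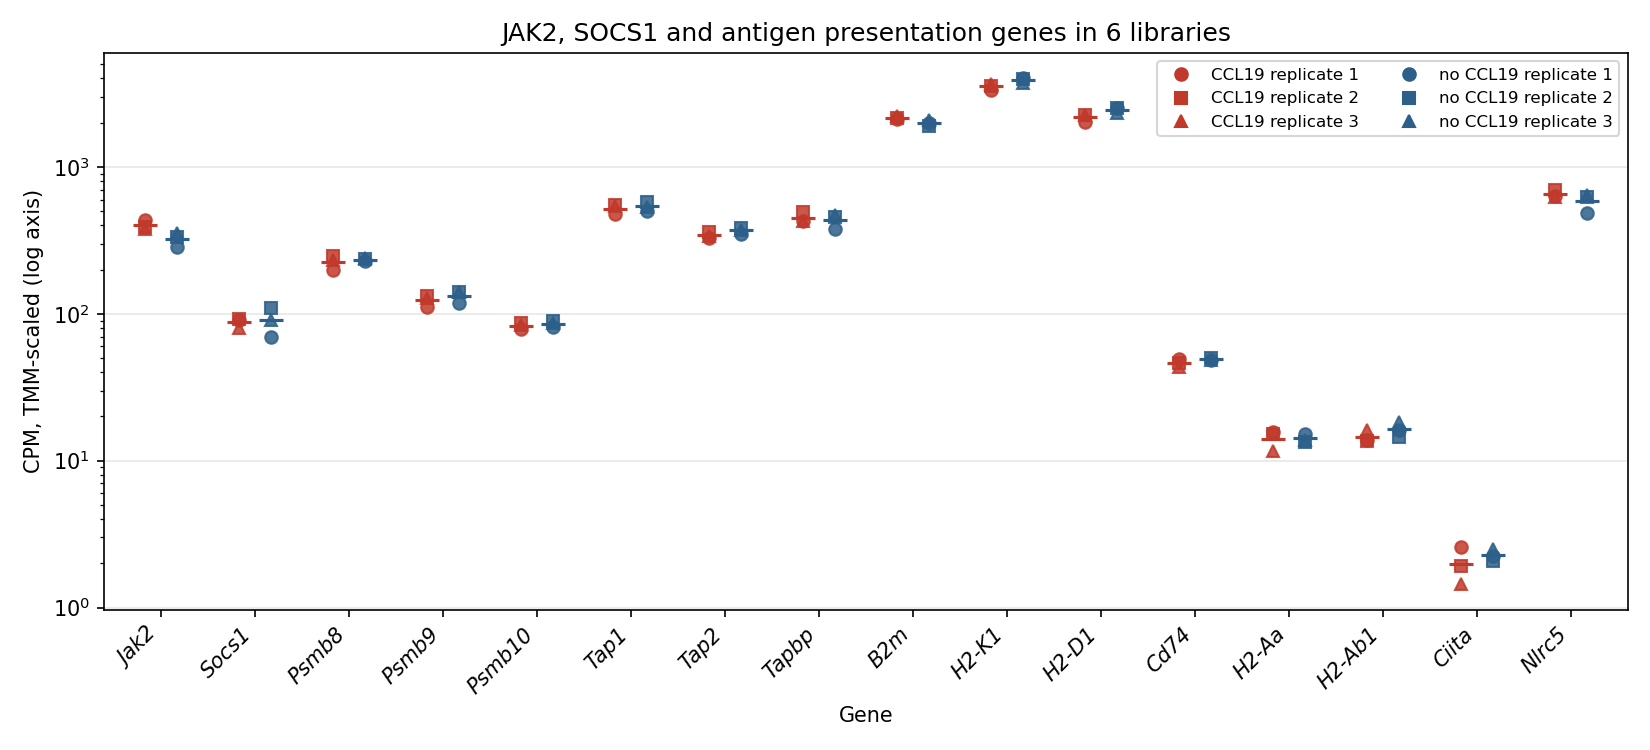
CPM scaled by TMM (log axis) of Jak2, Socs1 and the 14 antigen presentation genes in each of the 6 libraries, with CCL19 left and no CCL19 right for each gene. H2-K1 is the highest, with group means of 3531 CPM (CCL19) and 3889.8 CPM (no CCL19), and Ciita the lowest, with group means of 1.98 CPM (CCL19) and 2.27 CPM (no CCL19).

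The MHC class II genes were low. Cd74, the invariant chain that guides class II molecules, had 49.2, 46.6 and 43.3 CPM in CCL19 libraries, against 48.1, 50.4 and 48.4 CPM in no-CCL19 libraries, a log2 fold change of -0.08 ± 0.08. H2-Aa had 15.6, 15.1 and 11.7 CPM in CCL19 libraries, against 15.1, 13.5 and 13.9 CPM in no-CCL19 libraries. H2-Ab1 had a log2 fold change of -0.16 ± 0.12 and H2-Eb1, a class II gene outside the 33, one of -0.17 ± 0.12. Their edgeR adjusted p lay between 0.389 and 0.987. Of 13 tested B cell markers, whose summed levels are given above, 10 had a log2 fold change below 0. How much of the class II signal belongs to T cells was not tested. Of 15 tested genes of class II processing, 8 had a DESeq2 adjusted p. DESeq2 called 1 of these 8, the lysosomal protease Lgmn, lower at -0.37 ± 0.11 (adjusted p 0.0497), against 5.6% of all genes called lower.

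Ciita, the master regulator of class II genes, had 2.59, 1.92 and 1.44 CPM in CCL19 libraries, against 2.23, 2.08 and 2.5 CPM in no-CCL19 libraries, and its log2 fold change of -0.21 ± 0.26 was the least precise of the 14. Nlrc5, the matching transactivator of class I genes, had 634, 698 and 624 CPM in CCL19 libraries, against 484, 620.0 and 648 CPM in no-CCL19 libraries. No-CCL19 replicate 1 was again the lowest, and the log2 fold change was 0.16 ± 0.11 (edgeR adjusted p 0.342). Without that library it was 0.04.

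Transcripts of the GTPases and of antigen presentation differ in base composition. The GC content of the longest transcript was 39.3 to 49.5% for the 17 GTPases and 41.2 to 57.3% for the antigen presentation genes. Across tested genes, log2 fold change and GC content had a Spearman's rho of -0.317, given as a description, since genes are not independent replicates. Genes of 39 to under 50% GC had a median log2 fold change of 0.06 (5357 genes), and genes of 52 to under 58% had one of -0.07 (3253 genes). When each library was corrected for GC content and length, the median of the 17 GTPases was 0.29 and all 17 stayed above 0. That of the 14 antigen presentation genes was -0.01, and 6 of them lay above 0. H2-K1 was then at -0.08, H2-D1 at -0.07 and B2m at 0.04.

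**Figure D5:**
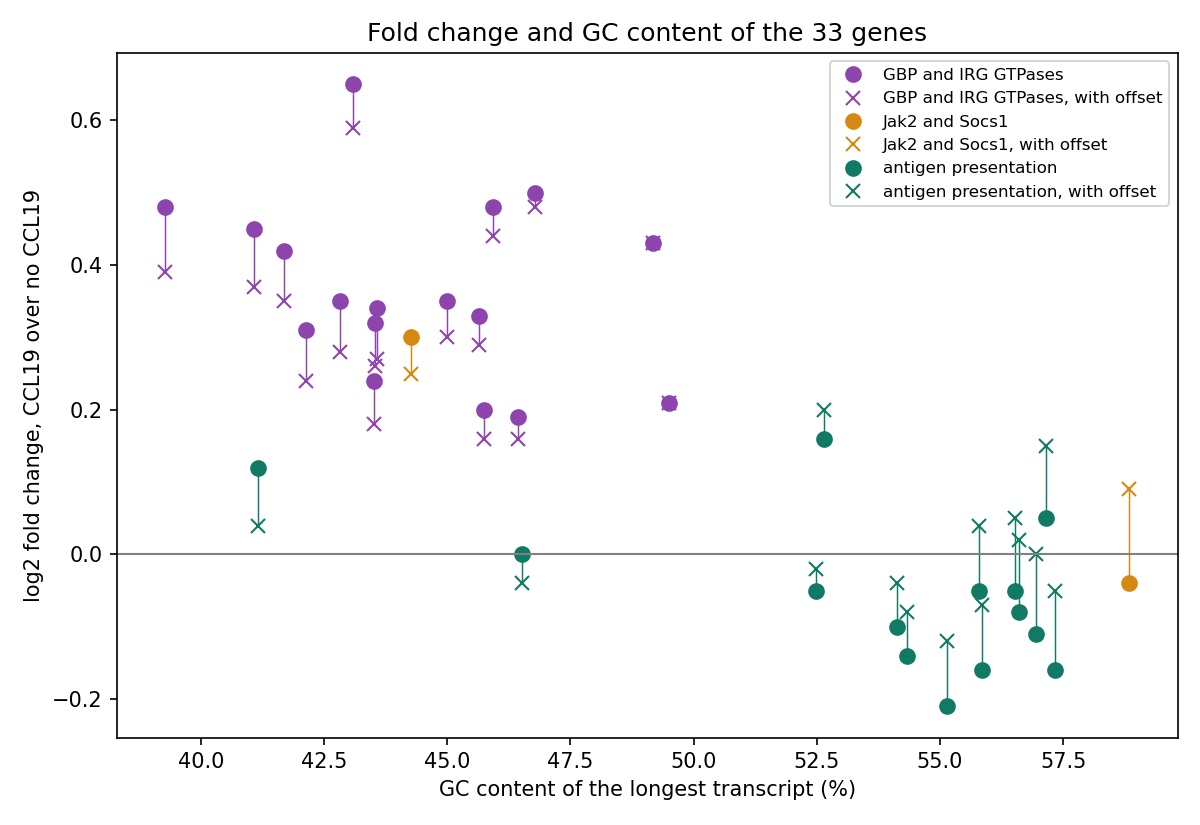
Log2 fold change (CCL19 over no CCL19) against GC content of the longest transcript for the 33 genes, with dots from the fit as reported and crosses from the fit corrected for GC content and length. The crosses of the 17 GTPases lie above 0 with a median of 0.29, and those of the 14 antigen presentation genes lie around 0 with a median of -0.01.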

How the data were processed

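RNA was sequenced from 6 samples, 3 with CCL19 and 3 without, grouped by their titles and treatments. Libraries were made with a TruSeq kit, per the labels' protocols. Per the submitters' processing notes, STAR 2.5 placed the reads on mm10, and featureCounts 1.5.0-p1 counted them. The authors deposited these as a table of raw counts, with gene IDs, symbols and coordinates, per the file headers. The sources used here do not state a strand setting. Whether reads of overlapping antisense genes, such as B2m and Patl2, were told apart is therefore unknown. A second table from the authors names 1168 changed genes with their direction, the same genes that DESeq2 called here.

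The groups were compared with edgeR 4.0.16 in R 4.3.3 (quasi-likelihood F test, filterByExpr, TMM) across all 11666 tested genes, and p-values were adjusted by Benjamini-Hochberg (threshold 0.05). The biological coefficient of variation was 8.72%, and TMM factors lay between 0.9792 and 1.016. DESeq2 1.42.0 (Wald test) and limma 3.58.1 (voom) were also run. Fold changes and SE are edgeR's. CPM are scaled by TMM, and scores use log2 CPM with a prior count of 2. Exon length and GC content came from GENCODE M21, available for 95.9% of tested genes, and promoters from RefSeq. The tests were tried on simulated counts.

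All 33 genes are named. Of 5 further lists, 16 genes chosen by name and every gene called by edgeR or DESeq2 are named, apart from a gene that is not reported here. The members and lists were chosen with earlier results of these data known. Olfr56, Gm43302, Patl2, Foxp3 and Clec4a4 were named after their values were seen. Alternatives were DESeq2 size factors, 2 other filters, a robust prior, a GC content and length offset, a replicate block and each library left out. Replicate numbers were not treated as pairs.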

Additional observations from a re-analysis of the deposited data

How the results depend on the processing

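edgeR called 0 genes and 0 of the 33 members, with a smallest adjusted p of 0.0505 against the threshold of 0.05. It also called 0 with DESeq2 size factors, a filter of 1 CPM in 3 libraries or the GC content and length offset. limma called 0 as well. DESeq2 called 1168 genes and 2 members, edgeR without a filter 1600 genes and 13 members, and edgeR with a robust prior 529 genes and 0 members. Leaving out 1 library gave 0 to 1599 genes and 0 to 4 members by edgeR, the highest gene count without CCL19 replicate 3 and 513 without no-CCL19 replicate 3. By DESeq2, in a repeat chosen after seeing the data, it gave 55 to 1704 genes and 0 to 13 members. The cause was not tested. A replicate block gave 0 genes and 0 members, and same-numbered libraries did not deviate together (r -0.164, 0.0814 and -0.0207), so the numbers were not taken as pairs.

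With the GC content and length offset, 4 of 33 members changed sign, to 0.09 for Socs1, 0.05 for Psmb10, 0.04 for Tap1 and 0.02 for Cd74. With the replicate block and that offset they were at 0.11 for Socs1, 0.05 for Psmb10, 0.04 for Tap1 and 0.02 for Cd74. With 1 library left out, Socs1 lay between -0.20 and 0.13, Psmb8 between -0.12 and 0.03 and Tapbp between -0.05 and 0.11. Gbp11 was at 0.00 without no-CCL19 replicate 1, and no other GTPase changed sign under these alternatives. With 3 libraries a group, counts near 2 CPM, as for Ciita and Ifng, limit what could be detected.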
